A study of Mus musculus with 182 samples.

Results

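The mRNAs of 8 core pluripotency factors, Pou5f1, Sox2, Nanog, Sall4, Esrrb, Zfp42, Tdgf1 and Nr5a2, were followed through mouse preimplantation development in single cells. They were chosen by gene symbol and were 8 of 24499 genes counted. The study profiled polyadenylated RNA, amplified cell by cell, in 182 oocytes and blastomeres from natural matings without embryo culture, and its design text names the deletion of the paternal allele of Xist, the long noncoding RNA that starts X-chromosome inactivation. Wild-type cells (Xist wt/wt, 113 cells) were 7 oocytes, 4 from C57BL/6J (B6) and 3 from Cast/EiJ (Cast), and 106 blastomeres of 2-cell (2C), 4C, 8C, 16C, 32C and 64C embryos. They came from both reciprocal crosses, named with the mother first (BC, B6 mother; CB, Cast mother), in both sexes. Cells labelled Xist wt/ko (69 cells, called mutant here) came from CB alone: 60 female cells from 8C to 64C, and 9 male cells with the same label at 32C and 64C.

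The cells of a stage, cross, sex and genotype were summed into 1 sample each, which gave 31 groups of 1 to 25 cells. No label names an embryo, so single cells were never treated as replicates, and p-values measure the spread between groups of cells, some of which may share embryos. A summed level cannot tell fewer expressing cells from less RNA per cell, so shares of expressing cells are given beside it.

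POU5F1 (OCT4) and SOX2 bind DNA side by side at composite SOX-octamer elements and, with the homeodomain protein NANOG, hold the inner cell mass and embryonic stem cells in the pluripotent state. The zinc-finger protein SALL4 and the orphan nuclear receptors ESRRB and NR5A2 act on many of the same genes, and Zfp42 (Rex1) encodes a zinc-finger protein used as a marker of naive pluripotency. TDGF1 (Cripto) is not a transcription factor but a membrane-anchored co-receptor of the growth factor Nodal. As the outer cells of the embryo become trophectoderm, led by CDX2, pluripotency factors become restricted to inner cells, which later split into epiblast and primitive endoderm.

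In the RefSeq annotation of GRCm38.p6, the assembly behind mm10, the genes lay at chr17:35506032-35510777 (Pou5f1), chr3:34649995-34652461 (Sox2), chr6:122707489-122714633 (Nanog), chr2:168748332-168767201 (Sall4), chr12:86361117-86521628 (Esrrb), chr8:43295067-43307009 (Zfp42), chr9:110939608-110946158 (Tdgf1) and chr1:136842562-136960448 (Nr5a2). Sox2 lies inside the noncoding gene Sox2ot, whose level did not exceed 1.55 counts per 1e6 reads (CPM) in any group. RefSeq lists 7 pseudogenes named after Pou5f1, 2 after Nanog, 2 after Tdgf1 and 1 after Zfp42. 1 of these, Pou5f1-rs4, had a row in the count table, with 326 reads in all cells against 546586 for Pou5f1. How reads matching several places were handled is not given in the sources used here, so reads from such copies cannot be told apart from those of the genes.

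Promoter sequences of 7 of the genes (RefSeq, GRCm38.p6, windows from 250 bases before to 50 after a start, 11 windows in all) were searched on both strands for the motifs of the factors themselves, because these proteins are known to act on one another's genes. The Nanog promoter held a SOX motif (ACAATG) next to an octamer-like run, shown here at chr6:122707406-122707434 on the strand opposite to the gene, and the Zfp42 promoter held an octamer (ATGCAAAT) at chr8:43307181-43307202 and an NR5A2 motif (TCAAGGCCA) at chr8:43307212-43307234. Capitals mark the motifs (in the Nanog line the SOX motif reads as its reverse complement, CATTGT), and each sequence reads 5′ to 3′.
Nanog SOX-octamer: ccatggaCATTGTAATGCAAAAgaagctg
Zfp42 octamer: ctcagttATGCAAATgcctctt
Zfp42 NR5A2: ctgagtcTCAAGGCCAggcgatc
A SOX motif within 2 bases of an octamer-like run, in any order, was found in 34 of 32851 promoter windows (0.104%), the octamer alone in 1.74% and the NR5A2 motif in 0.591%. The SOX motif by itself was common (12.6% of windows) and also occurred in windows of Esrrb and Pou5f1. The ESRRB motif TCAAGGTCA occurred in 0.423% of the windows searched and in none of the 11. The windows searched leave out those of a chromosome that holds none of these genes. These matches describe letters, not bound sites.

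Total counts per cell ranged from 2.54 to 40.05 M (1 M, 1e6 reads), with a median of 8.78 M. No 2 cells of a group had counts within sampling noise of each other. 17 cells (oocytes, 2C cells and 16C males) stood apart in the authors' normalized signal, which per CPM was 1.25 to 1.67 in relative terms, against 0.956 to 1.21 in the other 165. Xist itself was at 0.167 to 0.920 CPM in the mutant female groups from 16C to 64C and at 63.75 to 795 CPM in wild-type females of the same stages. At 8C, 2 of 7 mutant female cells held at least 100 Xist reads (21.2 and 80.6 CPM), against their label. One 2C cell has a CB title and a BC strain label, and its title was followed.

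Each factor had its own time course, given here for wild-type cells. By the authors' normalized signal, whose values fit a scaling by gene length, Sall4 led in oocytes with a median over cells of 1099, before Nanog at 87.0, and their interquartile ranges did not overlap. Nanog led at 2C with 280, Sall4 at 4C (126) and 8C (157), and Pou5f1 from 16C on, with 382, 308 and 242 in turn. The interquartile range of Sall4 overlapped those of Pou5f1 and Tdgf1 at both 4C and 8C. That of Pou5f1 overlapped that of Tdgf1 at 64C, and those of Pou5f1, Esrrb, Nr5a2 and Zfp42 overlapped at 2C. Sox2 ranked last or next to last among the 8 at 2C, 4C, 8C, 16C, 32C and 64C, with a median of 9.47 at 32C and 1.04 at 64C. In mutant cells Pou5f1 led from 8C on, with 180 at 8C. Sox2 had rank 5 at 32C (median 50.2) and rank 7 at 64C (40.2) in those cells.

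**Figure D1:**
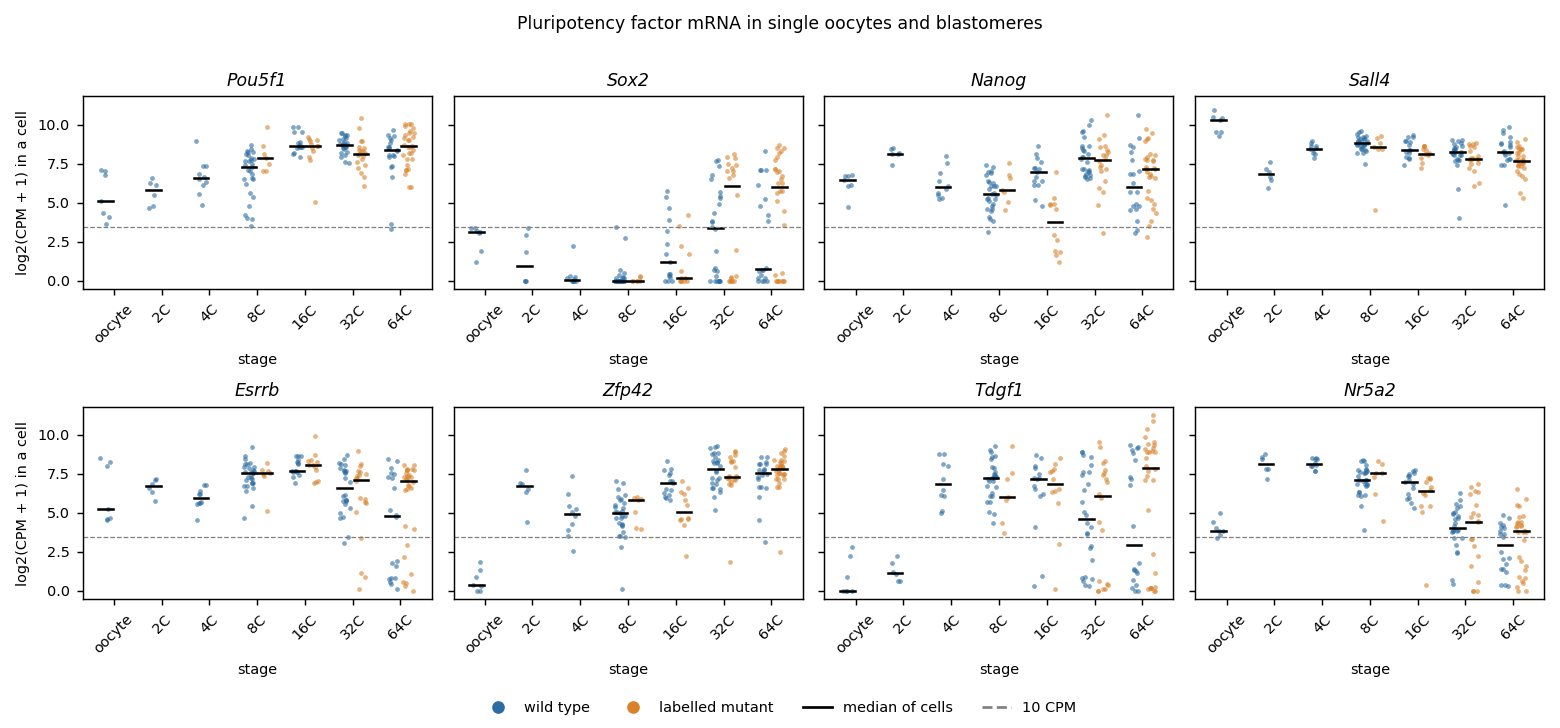
Level of each factor in every cell as log2(CPM + 1), by stage, with wild-type cells in blue, mutant cells in orange, a bar at the median of cells and a dashed line at 10 CPM. Sall4 starts high and dips at 2C, Zfp42 appears at 2C and Tdgf1 at 4C, and Sox2, Esrrb and Tdgf1 split into high and low cells at 32C and 64C.

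Stage changes were tested over the 25 wild-type groups with edgeR's quasi-likelihood test, adjusted by Benjamini-Hochberg over 16622 genes (FDR). From oocytes to 2C, 2 members rose and 2 fell, against 13.8% of all genes tested called higher and 13.2% called lower. From 2C to 4C, 2 rose and none fell (background 6.61% higher, 2.92% lower). From 4C to 8C none passed in either direction (0.367% higher and 0.0902% lower), with 2 at an unadjusted p under 0.05 and 1 called by DESeq2. From 8C to 16C none passed (0.0963% higher, 0.517% lower), with 5 at an unadjusted p under 0.05 and 3 called by DESeq2. From 16C to 32C, 1 fell and none rose (0.193% higher, 0.439% lower). From 32C to 64C none passed (0.0301% higher, 0.108% lower), none was under 0.05 unadjusted and DESeq2 called none. The factors called at some step were Sall4, Zfp42, Nr5a2, Tdgf1 and Esrrb.

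The changes around the oocyte and 2C stages depend on scaling, because edgeR's TMM factors were 0.483 to 0.594 in the oocyte groups and 1.33 to 1.48 in the 2C groups. This lowers a fitted oocyte-to-2C change by 1.41 on the log2 scale relative to the change in CPM. With library sizes alone the median change of all genes at this step was 1.45, against 0.04 with TMM, and 3497 genes were called higher and 882 lower, against 2289 and 2191. RLE factors gave 1930 higher and 2847 lower. From 2C to 4C, 1098 genes were called higher and 486 lower with TMM, 750 and 635 with library sizes alone and 820 and 578 with RLE factors. Values with library sizes alone, an alternative chosen after seeing the data, are therefore given beside the fitted ones for the step from oocytes to 2C. All 2C cells and no 4C cells are among the 17 cells that stood apart in normalized signal per CPM. A change from 2C to 4C cannot be told apart from that difference. By the authors' signal Pou5f1 had a median over cells of 129 at 2C and 75.9 at 4C, where the fit gave a rise.

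Pou5f1 mRNA was present in every oocyte and accumulated to its highest levels from 16C on. Its group levels were 19.8 CPM in B6 and 122 CPM in Cast oocytes, 24.7 to 94.6 CPM in the 4 groups of 2C, 88.8 to 218 CPM in 3 groups of 4C and 17.1 to 229 CPM at 8C. They were 241 to 845 CPM at 16C, 344 to 509 CPM at 32C and 286 to 611 CPM at 64C. The low value at 8C came from the single CB male cell, and the other 3 groups lay between 182 and 229 CPM. Pou5f1 and the total count of a cell correlated at 0.73 over the 29 wild-type cells of 8C (Spearman), and the part of depth in its values was not tested. No step passed the test by edgeR: the change from 8C to 16C was 1.68 (log2, SE 0.58, edgeR FDR 0.145), and DESeq2 called it (FDR 0.0335). From oocytes to 2C the fitted change was -1.62 (SE 0.67, FDR 0.0699) and with library sizes alone -0.31. DESeq2 (-2.17, FDR 0.00813), RLE factors (-2.17, FDR 0.0151) and the fit without B6 oocytes (-2.23, FDR 0.0338) called it. The change from 2C to 4C was 1.64 (FDR 0.0840), and it was called (FDR 0.0247 to 0.0410) without either oocyte group, without the CB males of 8C or of 16C, or without both groups of 16C males.

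Sox2 was the last of the factors to reach 10 CPM. No cell reached 10 CPM among 7 oocytes, 6 cells of 2C, 10 of 4C and 29 of 8C wild-type cells, which leaves room for shares of up to 40.96%, 45.9%, 30.85% and 11.9% (exact binomial 95% interval, covering counting error only). Then 4 of 15 cells reached it at 16C (26.7%, interval 7.79 to 55.1%), 13 of 26 at 32C (50%, 29.9 to 70.1%) and 9 of 20 at 64C (45%, 23.1 to 68.5%). Low reads were present earlier: all 7 oocytes had at least 1 CPM, with 1.23 to 9.56 CPM. The group levels at 16C were 16.6 and 5.45 CPM in BC and CB females and 2.33 and 0 CPM in BC and CB males. At 32C they were 47.85, 5.74, 15.1 and 99.1 CPM in the same order. The 64C groups held 38.95, 66.1, 0.168 and 144 CPM. The groups of 1 stage thus spread widely, and no step passed the test (8C to 16C, 3.77, SE 1.65, FDR 0.228). Thinning each cell to the lowest depth and asking for 10 reads gave 6, 14 and 9 expressing cells at 16C, 32C and 64C, but also 5 of 7 oocytes, 2 of 6 cells of 2C and 2 of 29 of 8C. From 2C to 4C, Sox2 changed by -4.47 on the log2 scale of the fit (SE 1.91, FDR 0.129), at levels under 10 CPM, and DESeq2 called it (FDR 0.0170).

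Nanog group levels were high at 2C, lowest at 8C and high again at 32C and 64C, with no step called. Oocytes held 69.6 (B6) and 89.5 CPM (Cast). The 2C groups held 280 (BC females), 343 (CB females), 166 (BC male) and 316 CPM (CB males), all above both oocyte groups. The fitted change was 0.40 (SE 0.68, FDR 0.701), and 1.80 with library sizes alone (FDR 0.0857), so it was not called under either scaling. Levels were 48.8 to 140 CPM at 4C, 23.2 to 67.6 CPM at 8C, 86.6 to 300 CPM at 16C, 128 to 552 CPM at 32C and 121 to 699 CPM at 64C. The change from 8C to 16C was 2.13 (SE 0.57, FDR 0.0676), and DESeq2 called it (FDR 0.00693). At 64C single wild-type cells ranged from 7.32 to 1551 CPM with a median of 63.1 CPM, and 18 of 20 cells reached 10 CPM.

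Sall4 was high in oocytes, lower at 2C and higher again at 4C. Its level was 1477 CPM in B6 and 688 CPM in Cast oocytes, then 89.3, 88.1, 144 and 137 CPM in the 4 groups of 2C (BC females, CB females, BC male, CB males) and 342, 417 and 415 CPM at 4C (BC females, CB females, BC males). The oocyte, 2C and 4C groups did not overlap. Sall4 fell by 4.70 from oocytes to 2C (SE 0.52, edgeR FDR 1.02e-06; -3.24 with library sizes alone) and rose by 2.11 from 2C to 4C (SE 0.46, FDR 0.00386). Both calls held under all of the 31 and 32 alternatives that could be fitted. None of these alternatives bears on the higher signal per CPM of 2C cells. By the authors' normalized signal the median over cells was 69.2 at 2C (38.2 to 178) and 126 at 4C (73.7 to 236). From 8C on, the wild-type groups held 190 to 773 CPM, and every wild-type cell from the oocyte to 64C had at least 10 CPM.

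Zfp42 was at 1.14 and 0.190 CPM in oocytes and at 105, 79.1, 20.6 and 173 CPM in the 4 groups of 2C. It rose by 5.66 (SE 1.099, FDR 0.000391; 7.12 with library sizes alone), in all 4 groups. The level was 16.1 to 76.3 CPM at 4C and 10.4 to 52.9 CPM at 8C, and 66.02 to 210 CPM at 16C, above all 8C groups. That last difference was 2.44 (SE 0.67, FDR 0.0753), short of the threshold, and DESeq2 called it (FDR 0.00499). At 32C the groups held 84.4 to 489 CPM and at 64C 150.5 to 229 CPM.

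Esrrb was at 26.9 CPM in B6 and 311 CPM in Cast oocytes, a difference between strains that was not tested. Single oocytes of both strains ran from 22.14 to 362.9 CPM. By the authors' normalized signal the same cells ran from 37.02 to 120.6, a narrower range in relative terms. The fitted change from oocytes to 2C was -2.07 (SE 0.69, FDR 0.0277). It was 0.52 (FDR 0.762) without the Cast oocytes, 0.044 by limma on cell means and -0.79 (FDR 0.442) with library sizes alone. The call was also lost, at FDR 0.0547 to 0.0933, without the BC females, CB females or BC male of 2C or the CB male of 8C. The 2C groups held 112, 116, 52.2 and 112 CPM. Levels were 54.3 to 78.7 CPM at 4C, 83.8 to 268 CPM at 8C, 156 to 295 CPM at 16C, 100 to 192 CPM at 32C and 9.76 to 172 CPM at 64C. The rise from 4C to 8C of 1.75 (SE 0.67) had an FDR of 0.204, and DESeq2 called it (FDR 0.0448). Every wild-type cell from the oocyte to 16C had at least 10 CPM, against 24 of 26 at 32C and 11 of 20 at 64C.

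Nr5a2 was high at 2C and 4C and low in oocytes and from 32C on. It stood at 13.3 and 18.9 CPM in oocytes and at 179, 344, 226 and 401 CPM in the 2C groups, and it rose by 2.78 (SE 0.64, FDR 0.00195; 4.16 with library sizes alone). The 3 groups of 4C lay close together at 300, 309 and 301 CPM. Levels were 101 to 268 CPM at 8C and 72.1 to 133 CPM at 16C, then 7.52, 27.8, 22.7 and 29.3 CPM at 32C. From 16C to 32C it fell by 2.25 (SE 0.47, FDR 0.0224), the single member call after 4C. All 32C groups lay below all 16C groups, but the call was lost (FDR 0.0508 to 0.0859) without the BC males of 16C, without any 1 of the 32C groups, or without both groups of 16C males, at fitted changes of -2.40 to -1.98. At 64C Nr5a2 was at 6.71 to 16.5 CPM.

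Tdgf1 appeared at 4C. It was at 2.42 and 0 CPM in oocytes and at 0.507 to 2.75 CPM at 2C, and no cell of these stages reached 10 CPM. At 4C all 10 cells exceeded 10 CPM, with group levels of 250.5 (BC females), 58.6 (CB females) and 392 CPM (BC males). The rise was 7.62 (SE 1.43, FDR 0.00111), called under all 32 alternatives that could be fitted. By the authors' normalized signal the median over cells was 1.07 at 2C and 61.9 at 4C. Levels then spread: 19.5 to 182 CPM at 8C, 5.73 to 290 CPM at 16C, 30.9 to 224 CPM at 32C and 0.565 to 437.5 CPM at 64C. The share of expressing wild-type cells was 29 of 29 at 8C, 13 of 15 at 16C, 17 of 26 at 32C and 10 of 20 at 64C.

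**Figure D2:**
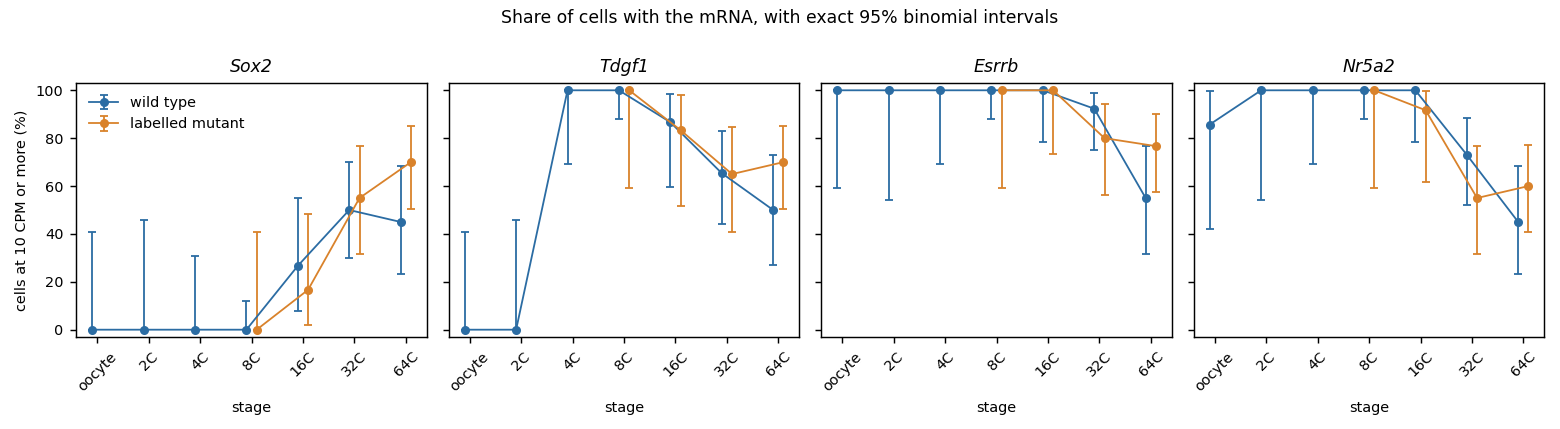
Share of cells with at least 10 CPM of Sox2, Tdgf1, Esrrb and Nr5a2 by stage, with exact 95% binomial intervals, for wild-type (blue) and mutant (orange) cells. Sox2 is at 0% up to 8C and 45% at 64C in wild-type cells, while Tdgf1, Esrrb and Nr5a2 are at 100% at 8C and at 50%, 55% and 45% at 64C.

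Within a stage, pairs of factors were compared by Spearman correlation over wild-type cells. Over the 28 pairs the median was -0.02 at 8C (n = 29, range -0.50 to 0.65), -0.055 at 16C (n = 15, -0.69 to 0.61), 0.205 at 32C (-0.48 to 0.88) and 0.18 at 64C (-0.37 to 0.83). The highest value of 8C was that of Pou5f1 with Esrrb, whose correlations with the total count of a cell were 0.73 and 0.54. The lowest value of 16C, Nanog with Sall4, was 0.11 by the authors' normalized signal. Sox2 had -0.30 with Tdgf1 and -0.04 with Esrrb at 8C, and -0.03 and 0.09 at 16C, while Esrrb and Tdgf1 had -0.21 at 8C and 0.61 at 16C. At 32C (n = 26) Sox2 and Tdgf1 correlated at 0.88, Sox2 and Esrrb at 0.59 and Esrrb and Tdgf1 at 0.58. At 64C (n = 20) the same pairs had 0.81, 0.83 and 0.82. In mutant cells they had 0.76, 0.71 and 0.65 at 32C (n = 20) and 0.63, 0.65 and 0.57 at 64C (n = 30). The points are single cells that may share embryos, and the values are descriptions. The correlation of the 3 mRNAs with the total count of a cell was 0.26 to 0.35 in wild-type cells of 64C, -0.20 to -0.06 in those of 32C and -0.67 to -0.33 in mutant cells of 32C.

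Other members had lower values with Sox2, in wild-type cells of 64C 0.16 for Pou5f1, 0.04 for Sall4, -0.23 for Zfp42 and 0.20 for Nanog. Zfp42 correlated instead with Nr5a2 at 64C (0.65) and with Nanog at 32C (0.61). Pou5f1 correlated with Sox2 at 0.60 in mutant cells of 64C, against 0.30 or less in wild-type cells of 32C and 64C. The difference was not tested.

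The trio ran opposite to the trophectoderm markers Cdx2 and Krt8. Its correlations with other trophectoderm markers are not given here. In wild-type cells of 64C, Sox2, Esrrb and Tdgf1 had correlations of -0.74, -0.82 and -0.75 with Cdx2, the trophectoderm master regulator, and of -0.68, -0.79 and -0.72 with the keratin Krt8. At 32C they had -0.71, -0.49 and -0.66 with Cdx2, and at 16C Sox2 and Cdx2 had -0.15. The mean log2(CPM + 1) of epiblast markers (Fgf4, Klf2, Gdf3, Tdh, Prdm14, Utf1, Bmp4 and Spp1) went with the trio at 64C. Its correlation was 0.80 for Sox2, 0.80 for Esrrb and 0.91 for Tdgf1. The primitive endoderm gene Gata6 had 0.60 with Sox2 in wild-type cells of 32C, and 0.04 with both Sox2 and Nanog in those of 64C. Nanog and Gata6 were each at 10 CPM or more in all 26 wild-type cells of 32C. Of 20 wild-type cells of 64C, 18 reached it for Nanog, 17 for Gata6 and 16 for both.

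**Figure D3:**
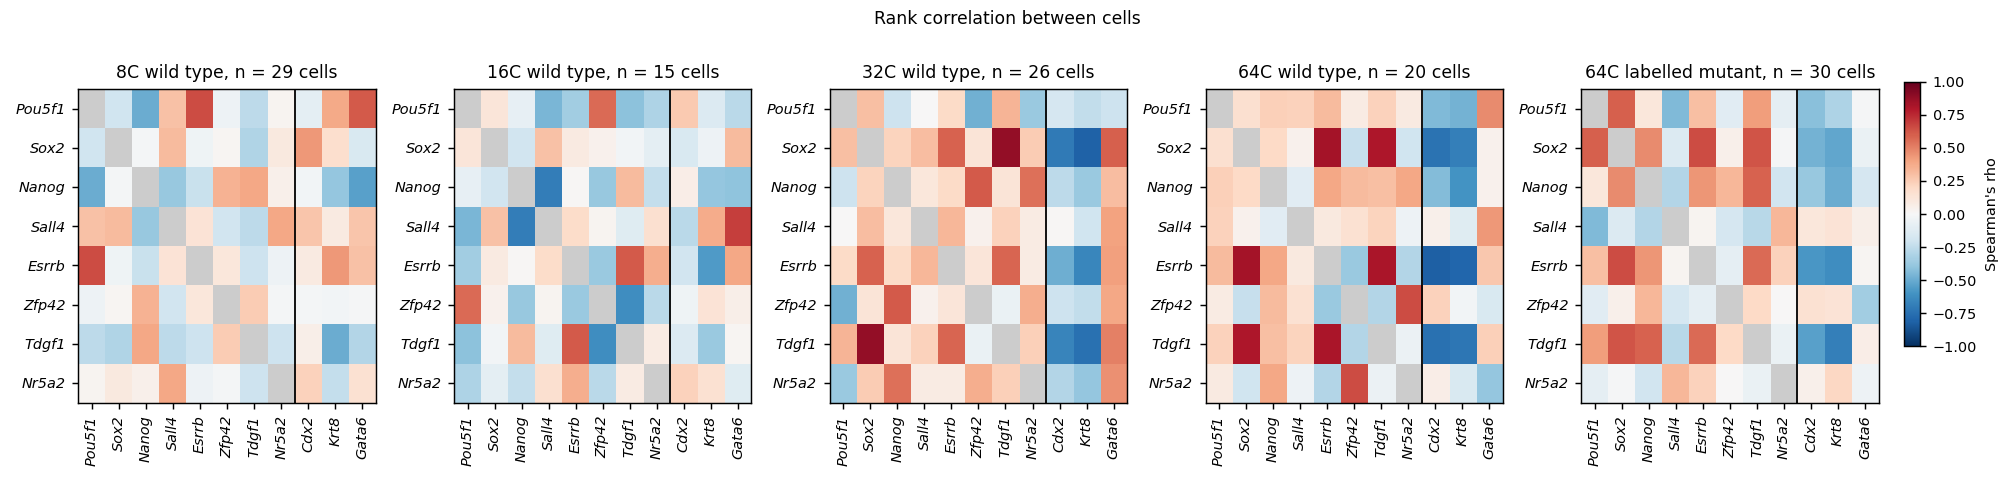
Spearman correlations over cells between the 8 factors and, right of the line, with Cdx2, Krt8 and Gata6, for wild-type cells of 8C, 16C, 32C and 64C and mutant cells of 64C (colour scale from -1 to 1). Strong positive values among Sox2, Esrrb and Tdgf1 and negative ones with Cdx2 and Krt8 are seen at 32C and 64C.

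Counted as on or off at 10 CPM, Sox2 and Cdx2 were on together in 3 of 15 wild-type cells of 16C, 7 of 26 of 32C and 1 of 20 of 64C. Cdx2 was thus also on in 3 of 4 Sox2-positive wild-type cells of 16C, in 7 of 13 of 32C and in 1 of 9 of 64C. In mutant cells it was on in 1 of 11 Sox2-positive cells of 32C and 1 of 21 of 64C. Over all wild-type cells Cdx2 was on in 7 of 15 at 16C, 19 of 26 at 32C and 11 of 20 at 64C. Over all mutant cells it was on in 9 of 20 at 32C and 7 of 30 at 64C. Sox2, Esrrb and Tdgf1 were not set as a trio in advance. Their joint counts come from the same cells as their correlations and are no separate evidence. They were all on in 8 of 20 wild-type cells of 64C and all off in 7, with 1 of the 3 on in 4 cells and 2 on in 1 cell. At 32C, 12 of 26 wild-type cells had all 3 on and none had all 3 off, while 10 had 1 on. Among mutant cells all 3 were on in 19 of 30 at 64C and in 11 of 20 at 32C, and all off in 6 and 4. All 8 factors were on together in 9 wild-type cells of 32C and 4 of 64C.

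**Figure D4:**
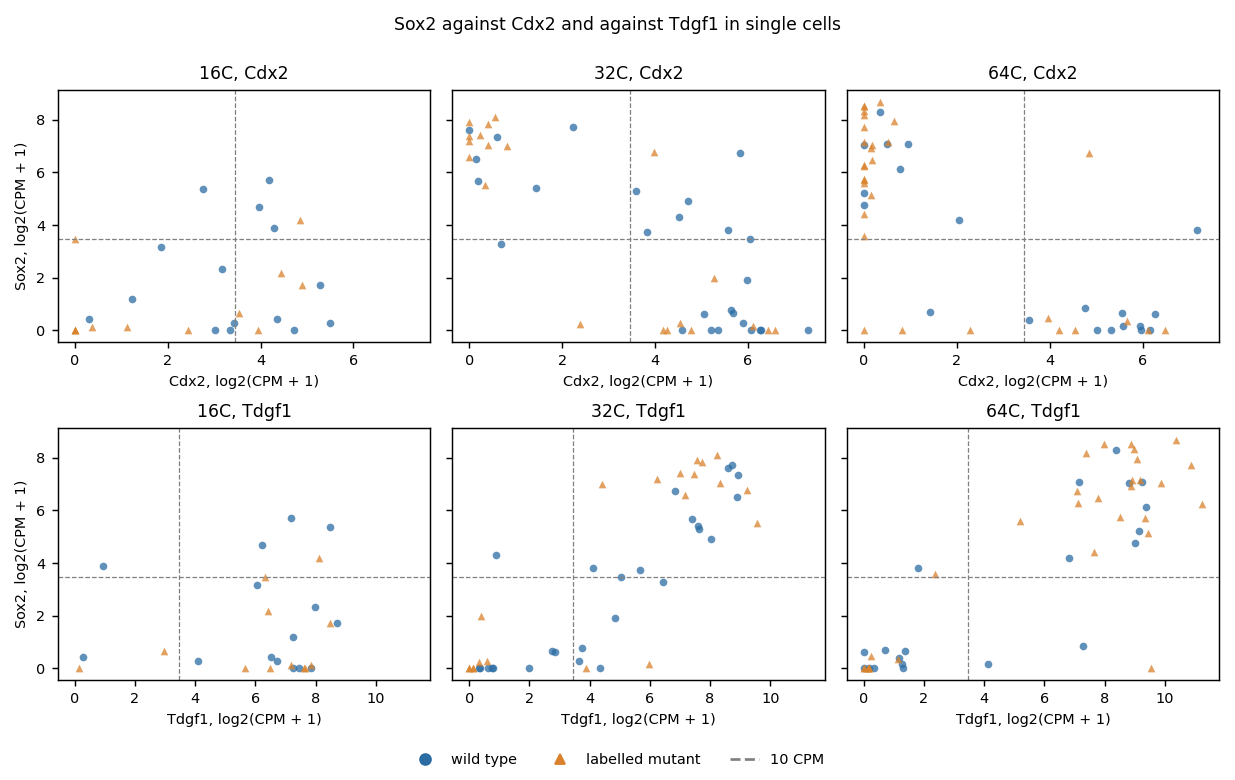
Sox2 against Cdx2 (top) and against Tdgf1 (bottom) in single cells of 16C, 32C and 64C, as log2(CPM + 1), with wild-type cells as blue circles, mutant cells as orange triangles and dashed lines at 10 CPM. At 64C 1 of 9 Sox2-positive wild-type cells also has Cdx2, against 11 of 20 of all, and Sox2 and Tdgf1 are on or off together in 17 of 20.

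The groups of 32C and 64C differed in the cell type markers of the cells they held. The sum of 14 trophectoderm markers ran from 154 to 6860 CPM in single cells of 32C and from 8.70 to 22678 CPM in those of 64C. In the 6 BC male cells of 64C it was 2109 to 18799 CPM. None of these cells had Sox2 or Tdgf1 at 10 CPM and 2 had Esrrb, whereas 6 of 6 had Nanog and 5 of 6 had Pou5f1 and Zfp42. In the 2 CB male cells of 64C the sum was 353 and 412 CPM, and both had all 8 factors on. The epiblast marker sum was 4.60 to 129 CPM in the BC male cells and 1264 to 2176 CPM in the CB male cells. The part of this difference in cell type in the levels of the factors was not tested.

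Allelic shares gave the parental side to which reads of these mRNAs were assigned. Reads were counted on mm10. Any preference for reads of either strain, or reads from the pseudogenes listed above, was not tested in these shares. The authors deposited for each cell and gene the share of allele-assigned reads from the paternal allele, without the reads behind it, so its depth is unknown, and a cell was used where it had at least 10 reads of the gene. A share was present in all 182 cells for Sall4, in 167 for Zfp42, 146 for Nanog, 135 for Nr5a2, 133 for Tdgf1, 131 for Esrrb and 59 for Sox2. Pou5f1 had one in 7 cells and is not described further. Esrrb had none in oocytes, 2C cells or 16C males.

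Sall4 reads were almost all assigned to the maternal side in oocytes, and the paternal share was higher at each of 2C and 4C. In oocytes, which carry no paternal genome, 0.0071 (B6) and 0.0076 (Cast) of its reads were assigned to the paternal side. At 2C the group medians were 0.203 and 0.162 in BC females and male and 0.169 and 0.208 in CB female and males. This CB female is the cell with a BC strain label, under which the sides of its share may be exchanged. The medians at 4C were 0.437, 0.425 and 0.562, and from 16C to 64C 0.345 to 0.758. The mean difference of 16C to 64C against 2C and 4C was 0.191 (SE 0.071, limma with the cross as covariate, FDR 0.171), which was not called. In this test 0 of 6 members were called, 2 had an unadjusted p under 0.05, and 2.50% of 6791 genes were called in either direction. Esrrb had the other low p, with -0.386 (SE 0.120, FDR 0.123) over 3 early and 9 late groups.

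Nr5a2 was read from both alleles from 2C to 8C. Its group medians were 0.387 to 0.696 at 2C and 0.441 to 0.513 at 4C, and no wild-type cell of 2C, 4C or 8C had 0.1 or less, or 0.9 or more, from the father. At 32C 8 of 16 and at 64C 6 of 9 wild-type cells with a share lay within 0.1 of 0 or 1, at the low levels of Nr5a2 of these stages. With at least 100 reads these were 7 of 15 and 5 of 8, against 31.3% and 40.99% of all autosomal values at that minimum. Zfp42 was less even at 2C, where CB cells held 0.145 to 0.268 paternal reads and BC cells 0.115 to 0.660. The 0.145 is that of the CB female with a BC strain label, under which the sides of its share may be exchanged.

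Tdgf1 had its reads assigned mainly to the B6 allele in both crosses. Its paternal share was low in BC, where the father is Cast: for BC females the group medians from 4C to 64C were 0.309, 0.377, 0.0740, 0.0850 and 0.395, and for BC males from 4C to 32C 0.0664, 0.233, 0.280 and 0.190. In CB, where the father is B6, those of females were 0.936, 0.998, 0.975, 0.998 and 0.823 over the same stages, and those of males from 8C to 64C were 0.857, 0.996, 0.608 and 0.701. The groups of the crosses did not overlap from 4C to 64C, while single cells did at 4C, 32C and 64C. Over 8C to 64C the paternal share differed by -0.660 between BC and CB (SE 0.080, limma FDR 0.00109), and it was lower in BC in 7 of 7 pairs of stage and sex. This was 1 of 6 members tested, where 11.5% of 6018 genes were called in either direction, with a median difference of -0.0296 over all of them. The paternal share was within 0.1 of 0 or 1 in 8 of 13 wild-type cells of 16C (61.5%, against 22.3% of all autosomal values of that stage) and in 1 of 10 of 64C (against 40.99% of all). These Tdgf1 counts are the same at 100 reads, the minimum behind the autosomal values.

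Nanog reads at 2C were assigned almost wholly to the B6 allele. The B6 share was 0.966 to 1 in the 3 BC cells, 1 in the 2 CB males and 0.929 in the CB female. That female is the cell with a BC strain label, under which the sides of its share may be exchanged. At 4C it was 0.979 and 1 in 2 CB cells but ran from 0.0231 to 1 in 7 BC cells. From 16C the medians of both crosses lay between 0.36 and 0.69. In the 6 mutant cells of 16C with a share, 0.983 to 1 of the Nanog reads were paternal, at a group level of 23.1 CPM; 6 of 12 cells of that group reached 10 CPM. Over 8C to 64C the difference between crosses in paternal share was -0.1075 (SE 0.0999, FDR 0.551) for Nanog and was also not called for Sall4, Esrrb, Zfp42 and Nr5a2 (FDR 0.297 to 0.533).

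**Figure D5:**
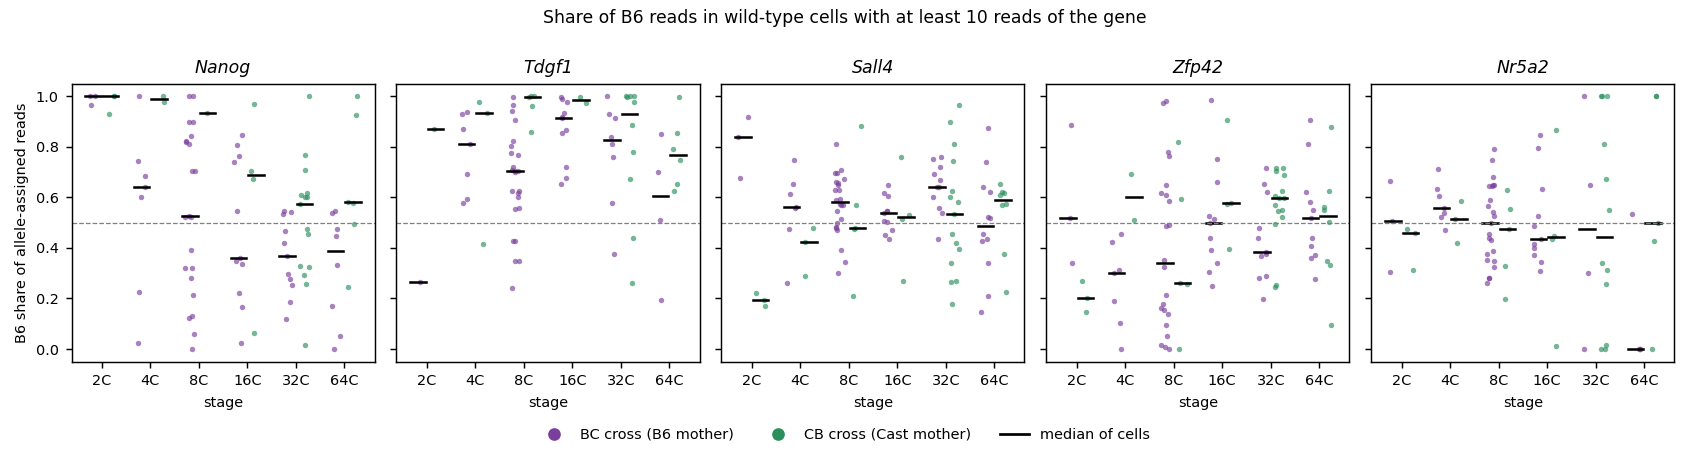
Share of allele-assigned reads from the B6 allele in wild-type cells with at least 10 reads of the gene, by stage, with BC cells (B6 mother) in purple, CB cells (Cast mother) in green, a bar at the median of cells and a dashed line at 0.5. Both crosses lie near 1 for Nanog at 2C and above 0.5 by median for Tdgf1 from 4C, and Sall4 splits by cross at 2C.

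Females labelled mutant were compared with wild-type CB females from 8C to 64C, the comparison that asks whether loss of paternal Xist goes with other levels of these factors. No member was called (edgeR, FDR of 1 for all 8), against 0% of 14304 genes tested, where 512 genes had an unadjusted p under 0.05 and DESeq2 called 203. 1 member had an unadjusted p under 0.05, and DESeq2 called no member. Xist itself differed by -7.41 (SE 1.52, unadjusted p 0.00063) without passing the adjustment (FDR 1). Its difference was -7.94 (FDR 0.124) without the 2 mutant 8C cells that hold at least 100 Xist reads. The median over all genes was 0.12.

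Tdgf1 had the lowest p. It was at 164.5 CPM in mutants and 96.6 CPM in wild types at 8C, 144 and 5.73 CPM at 16C, 147 and 30.9 CPM at 32C and 392 and 306 CPM at 64C. It was thus higher in mutants at 4 of 4 stages, by 1.76 (SE 0.69, p 0.0286, FDR 1). Without either 16C group the difference was 0.98, and DESeq2 gave an FDR of 0.196. The 3 wild-type CB female cells of 16C had 0.222, 0.913 and 16.1 CPM. The other members differed by -0.42 to 0.51, and without the 16C mutants Nanog (0.58), Zfp42 (0.37), Pou5f1 (0.10) and Nr5a2 (0.02) changed sign.

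Sox2 was at 106 CPM in mutant and 5.74 CPM in wild-type CB females of 32C, and at 92.9 and 66.1 CPM at 64C. At 32C, 11 of 16 mutant and 2 of 9 wild-type CB female cells had 10 CPM or more, and at 64C 17 of 25 and 4 of 6. At 16C it was lower in mutants, with 2.85 against 5.45 CPM, and at 8C with 0.0462 against 0.116 CPM. The fitted difference over the stages was 0.51 (SE 0.95, FDR 1), and 1.27 without either 16C group. The trophectoderm marker sum at 32C had a median over cells of 604 CPM in mutants and 2021 CPM in wild types, while the summed groups held 1837 and 1949 CPM, and its part was not tested. Nanog stood at 23.1 CPM in mutants and 108.5 CPM in wild types at 16C, but at 82.1 and 25.7 CPM at 8C and 354 and 439 CPM at 32C, a fitted difference of -0.10 (SE 0.60, FDR 1). In the 4 mutant male cells of 32C no Sox2 was found at 10 CPM, at trophectoderm marker sums of 1560 to 3097 CPM, and in the 5 of 64C 4 cells had it.

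Neither sex nor cross gave a call among the members. Females against males over 11 pairs of stage and cross differed by -0.43 to 1.81 (edgeR FDR 0.996 or more), against 0.0492% of 16269 genes called. BC against CB over 11 pairs of stage and sex differed by -0.57 to 0.60 (FDR 0.508 to 0.979), against 0.0124% of 16171 genes called. In both comparisons 0 of 8 members had an unadjusted p under 0.05, and DESeq2 called none. The medians over all genes were 0.19 and 0.33. Neither the effect of sex between the crosses nor that of cross between the sexes passed a test of the difference for any member (exact two-sided permutation tests of 6 against 5 pair differences, 16 tests, Benjamini-Hochberg adjusted p 0.678 to 0.706). Zfp42 had the lowest unadjusted p of these, 0.0649, with a female minus male difference of 1.015 in BC and -0.07 in CB pairs on the log2(CPM + 1) scale.

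A list of 36 other pluripotency genes, of which 35 could be tested over the stages, also had its calls at the early steps. From oocytes to 2C, 7 rose and 3 fell, against the 13.8% and 13.2% of all genes. The total of 10 was 15 with library sizes alone and by DESeq2, 19 by limma on cell means and 5 to 12 when 1 group was left out. Dppa4 and Dppa2, chromatin-bound activators of early embryonic genes, rose by 6.60 (SE 0.77, FDR 1.58e-06) and 4.20 (SE 0.74, FDR 0.000136), and L1td1, an RNA-binding protein gene, by 6.39 (SE 1.05, FDR 6.57e-05). Stat3, the effector of LIF signalling, fell by 4.31 (SE 0.67, FDR 3.44e-05) and Pecam1, a surface marker of the inner cell mass, by 3.99 (SE 0.98, FDR 0.00329). With library sizes alone these changes were 8.11, 5.59, 7.85, -2.95 and -2.71 in the same order, and all 5 were called. From 2C to 4C, 5 rose (background 6.61%), among them the 5-methylcytosine oxidase gene Tet1 by 4.35 (SE 0.73, FDR 0.0004), Sall1, a paralogue of Sall4, by 8.57 (SE 1.96, FDR 0.00601), Pecam1 by 4.23 and Dppa2 by 2.39. L1td1 alone fell by 3.38 (SE 0.74, FDR 0.00405; background 2.92%). None passed at a later step or between genotypes, sexes or crosses in edgeR, where DESeq2 called 4, 5, 1 and 2 at the later steps, 1 between genotypes, 0 between sexes and 2 between crosses. The median change of the list was 1.46 from oocytes to 2C, where that of all genes was 0.04 and that of the 8 members -1.44. With library sizes alone the 3 medians were 2.93, 1.45 and -0.03.

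The genes most like each member were ranked by Pearson correlation of log2(CPM + 1) over the 25 wild-type groups, among 12482 genes with at least 10 CPM in a group. They share the groups and their depth, and the values are descriptions. For Pou5f1 they were Eif5a (0.92), Psmd3 (0.91) and Ctsd (0.90), and for Zfp42 Aars (0.92), Naa10 and Cdk5rap3 (both 0.91). Nr5a2 had the highest value of all with Jmy (0.95), followed by Ifi203 (0.94) and Gm11544 (0.92). Sox2 was nearest to Srebf2 (0.87), Psmb9 (0.84) and Chga (0.82), Sall4 to Nup37 (0.86), Bub1b (0.84) and Mitd1 (0.83), and Tdgf1 to Mrpl21 (0.84), Pdss1 and Uap1 (both 0.81). Nanog was nearest to Gtse1 (0.83), Car9 (0.74) and Snhg11 (0.73), and Esrrb to Atp6v0a1 (0.63), Wars2 and Ints4 (both 0.59). Among the members themselves the highest were Nanog with Zfp42 (0.59) and Pou5f1 with Zfp42 (0.55), and the lowest were Sox2 with Nr5a2 (-0.63) and Nanog with Sall4 (-0.61).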

How the data were processed

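Reads were 50 bases, single end, from amplified polyadenylated RNA of 182 cells. The deposited counts are whole reads per gene, made with TopHat2 2.1.0, SAMtools and HTSeq 0.6.1 on mm10, per the submitters' processing notes; the sources used here give neither strand nor settings. The authors also deposited a normalized signal (RPRT, whose formula is not given and whose values fit a scaling by depth and gene length) used to compare levels between genes, and the fraction of allele-assigned reads that is paternal, a direction read from X-linked genes in males and from Xist. From these, CPM per cell and per group (2.54 to 40.05 M reads per cell) were computed.

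Summed counts were tested with edgeR 4.0.16 (TMM, filterByExpr with the design, quasi-likelihood) in R 4.3.3; mutants had the stage, sexes and crosses the pair as block. Shares were tested with limma 3.58.1 on group medians. All p-values were adjusted by Benjamini-Hochberg over all genes tested, with a threshold of 0.05. The scripts were tested on simulated data. Alternatives were DESeq2 1.42.0, RLE factors, library sizes alone, no low-count filter, cell means, other read minimums, and leaving out groups. Members of the set, the 5 genes with the smallest p of the network list, the 3 genes most like each member and Xist are named. The members and lists were chosen with earlier results of these data known.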

Additional observations from a re-analysis of the deposited data

Results flagged for a closer look

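Dixon's ratio, the gap of the extreme group to its neighbour divided by the range of the stage, was taken for each factor over the 4 wild-type groups of each stage with 4 groups. Of 40 such sets, 3 lay above the 95% critical value for 4 groups, where chance flags about 1 in 20. Esrrb at 2C had a ratio of 0.956: the BC male, a single cell, was at 52.2 CPM and the other 3 groups at 112 to 116 CPM. Pou5f1 at 8C had a ratio of 0.910: the CB male, a single cell, was at 17.1 CPM and the others at 182 to 229 CPM. Tdgf1 at 64C had a ratio of 0.866: the 6 BC male cells were at 0.565 CPM together and the other groups at 205.5 to 437.5 CPM, and the same 6 cells had trophectoderm marker sums of 2109 to 18799 CPM, whose part was not tested.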

How the results depend on the processing

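Of the 8 member calls, those of Sall4, Zfp42 and Nr5a2 from oocytes to 2C, of Sall4 and Tdgf1 from 2C to 4C and of the Tdgf1 share between crosses held under all their alternatives. None of these alternatives bears on the higher signal per CPM of 2C cells, which 4C cells do not share. Esrrb from oocytes to 2C reversed by limma on cell means (0.044) and ran from -2.76 to 0.52 when 1 group was left out. DESeq2 called 1 member from 4C to 8C and 3 from 8C to 16C, where limma on cell means called 1 and leaving out 1 group gave 0 to 1. From 16C to 32C, 0 members were called without the 16C males, and 0 to 1 when 1 group was left out. DESeq2 also called Sox2 from 2C to 4C (-4.83). Groups of at least 3 cells exclude the 2C stage, so the steps into and out of it could not be fitted in that way.

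Counts over all genes moved more. DESeq2 called 3019 genes from 2C to 4C, 1317, 1202, 817 and 528 at the 4 later steps, 203 between genotypes, 80 between sexes and 792 between crosses, against 1584, 76, 102, 105, 23, 0, 8 and 2 with edgeR. Limma on cell means called 3605, 395, 314, 305 and 112 over the same 5 steps, 1 between sexes and 0 between crosses. Sex and cross as covariates gave 172 and 58 for 4C to 8C and 8C to 16C. Groups of at least 3 cells gave 39, 13, 52 and 13 from 4C on, leaving out the 16C males 184, 33 and 15 for the 3 steps from 4C to 32C and 1 between sexes, and library sizes alone 37 and 48 for 4C to 8C and 8C to 16C and 6 between crosses (5 higher in BC). From 32C to 64C, RLE factors gave 14 and no filter 60; between sexes RLE gave 5 (3 higher in females, against 6 of 8 with TMM). Without the 2C cell of unclear cross 1 gene was called between crosses. The late against early share test gave 271 genes with the mean of cells and 1 without 2C and 16C males, against 170. Leaving out 1 group gave 806 to 1968, 0 to 154, 5 to 369, 26 to 131 and 3 to 53 genes at the 5 steps from 2C on.

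No paired analysis was possible because the groups are sums of all cells with the same labels and carry no replicate number; the blocks used pair groups by stage, sex or cross label. Groups of 1 or 2 cells at 2C and among males limit the precision of the early steps and of the sex and cross comparisons.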
